A study of Mus musculus with 8 samples.

Results

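The import of amino acids was followed through the transcripts of 10 plasma membrane transporter genes in mesenchymal stem cells (MSCs, stromal cells that can form bone, fat and cartilage) isolated from the bones of C57BL/6N mice aged 3-5 months. The 10 genes are Slc7a5, Slc3a2, Slc7a1, Slc7a3, Slc7a6, Slc7a11, Slc1a4, Slc1a5, Slc38a1 and Slc38a2. They were chosen by name, with the contrast between oxygen levels in view, out of 53465 gene identifiers in the count table, and all 10 were among the 14369 genes that had enough counts to be tested. For this reason their differences between oxygen levels are a description: no p-value of theirs is given, and the number under the threshold of the fit over all genes is printed beside the share of all genes, with nothing read from it. The study asked how long exposure to atmospheric oxygen affects the link between metabolism, chromatin and the fate of these stem cells. Per the methods of the study, cells were grown out of bone fragments at 2% oxygen, sorted as CD45-, Ter-119-, CD140a+ and Sca-1+ cells, divided, and cultured for 7 more days in hypoxia (2% oxygen) or normoxia (21% oxygen). The labels differ in the order of these steps, as they describe culture at either oxygen level first and the sort afterwards, on day 12. They give 4 samples per group, numbered 1 to 4 in each, and whether samples with the same number share a sort depends on which order holds. Neither the labels nor the methods name an altered allele or an added agent for these samples, and hypoxia is the reference group.

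Amino acids do not cross membranes unaided. Slc7a5 (LAT1) exchanges large neutral amino acids such as leucine for glutamine, and it reaches the cell surface only when bound to the heavy chain Slc3a2 (CD98hc), which also carries Slc7a6 (y+LAT2) and the cystine and glutamate exchanger Slc7a11 (xCT). Slc7a1 and Slc7a3 carry the cationic amino acids arginine and lysine. Slc1a4 and Slc1a5 exchange small neutral amino acids such as serine, and Slc1a5 also exchanges glutamine. Slc38a1 and Slc38a2 take up glutamine and alanine together with sodium. Many of these genes are known targets of the transcription factor ATF4, which acts when amino acids run short, and the leucine and arginine they import are known to activate the growth kinase complex mTORC1.

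Total counts were between 12898291 and 13433824 in 7 samples and 25132141 in hypoxia replicate 1. The listed MSC markers, 9 surface proteins and the secreted chemokine Cxcl12, were present in every sample. All 10 were tested. At an adjusted p under 0.05 by limma-trend, 1 fell and 3 rose in normoxia, beside 34.6% of all tested genes. With the replicate number as a block in the fit, 5 fell and 5 rose, beside 46.0% of all genes. Their summed level was 4018 to 4848 CPM (counts scaled to a common library total) in hypoxia and 4326 to 4688 CPM in normoxia. Markers of macrophages, which the sort for CD45- cells should have removed, were also present: all 8 were tested, and their sum ranged from 525 to 1076 CPM in hypoxia and from 619 to 1169 CPM in normoxia. The most abundant of them, Lyz2, rose in normoxia (log2 change 0.56, adjusted p = 0.022 by limma-trend) and Mrc1 fell (-0.84, adjusted p = 0.042). The other 6 did not pass the threshold without the block. With the block, 4 of the 8 fell and 1 rose, beside 46.0% of all genes. Among those that fell were Csf1r (-0.59, adjusted p = 6.7e-09) and Cd68 (-0.28, adjusted p = 0.0028). Endothelial markers summed to at most 3.44 CPM in any sample, with Emcn at 0, and of 6 erythroid markers 5 had no count in any sample. CPM values are scaled to the library sizes by the TMM method. A log2 change is always normoxia minus hypoxia, on log2 CPM with a prior count of 3, and its standard error (SE) comes from the limma-trend fit over all tested genes.

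Slc7a5 (ENSMUSG00000040010, GRCm38 chromosome 8, 121881150 to 121907694, minus strand) stood at 456, 365, 408 and 372 CPM in hypoxia replicates 1 to 4 and at 193, 189, 197 and 211 CPM in normoxia replicates 1 to 4. The lowest hypoxic sample lay above the highest normoxic one. Mean levels (± SD, n = 4 per group) were 400 ± 41.6 CPM in hypoxia and 198 ± 9.38 CPM in normoxia, which is 50.6% lower in normoxia, with a log2 change of -1.01 (SE 0.073). Differences between samples with the same number ran from -1.24 to -0.82 on the log2 scale. In bulk RNA, fewer cells that express a gene and less RNA per cell cannot be told apart, here and for every gene that follows.

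Its heavy chain Slc3a2 (ENSMUSG00000010095, chromosome 19, 8706882 to 8723369, minus strand) differed far less. It was at 263, 247, 263 and 251 CPM in hypoxia and at 207, 212, 221 and 228 CPM in normoxia, again without overlap between the groups. The means of 256 ± 8.21 and 217 ± 9.31 CPM (SD, n = 4 each) are 15.2% apart, and the log2 change was -0.24 (SE 0.054).

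**Figure D1:**
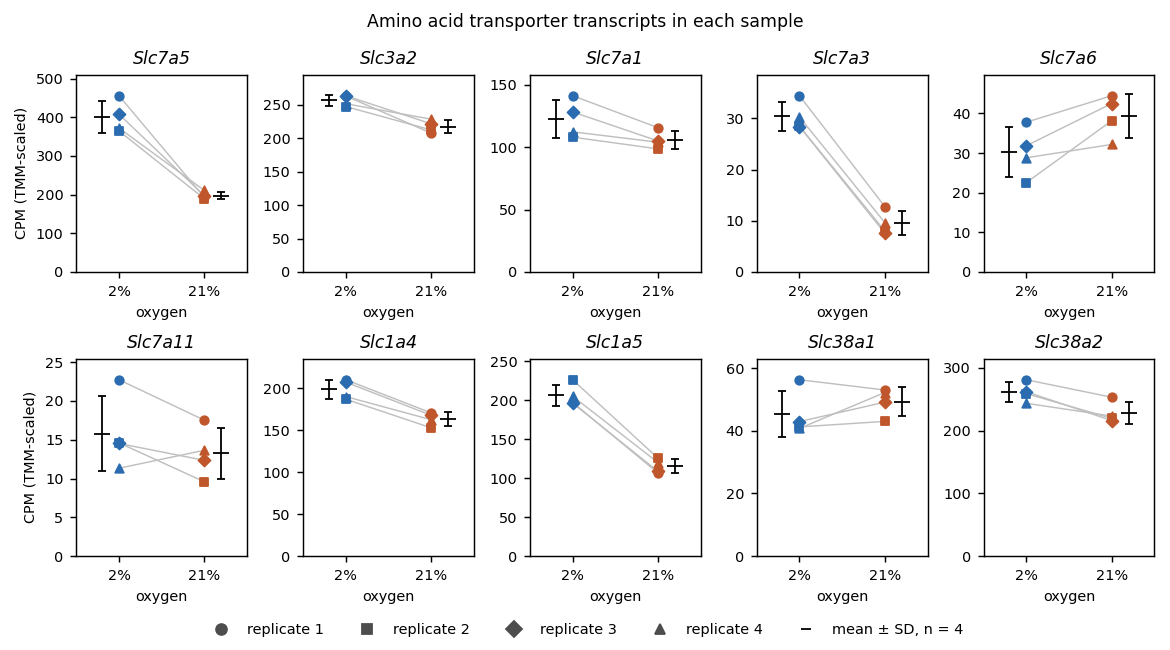
Each panel shows 1 transporter: CPM on a linear axis from 0, 4 samples at 2% oxygen (blue) and 4 at 21% oxygen (orange), with grey lines joining samples of the same number and black bars for the mean ± SD (n = 4). Slc7a5, Slc7a3 and Slc1a5 show the widest gaps between groups, and Slc7a6 is the transporter whose lines all go up.

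Levels of a light chain and its heavy chain can be set side by side only per length of transcript, and CPM were therefore divided by the length in kilobases of the longest annotated transcript. On this scale the ratio of Slc7a5 to Slc3a2 was 1.39, 1.18, 1.24 and 1.18 in hypoxia and 0.744, 0.714, 0.713 and 0.739 in normoxia. Slc7a5 thus exceeded its heavy chain in every hypoxic sample and stayed below it in every normoxic one. The mean ratio (SD, n = 4 each) was 1.25 ± 0.096 in hypoxia and 0.728 ± 0.016 in normoxia. With merged exons as the length, the ratios were 1.49 and 0.866, so that their order between groups did not depend on the length used.

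Slc3a2 can pair with 6 light chains, namely Slc7a5, Slc7a6, Slc7a7, Slc7a8, Slc7a10 and Slc7a11. Their summed level per length (± SD, n = 4 per group) was 1.55 ± 0.094 times that of Slc3a2 in hypoxia and 1.03 ± 0.027 times in normoxia. Slc7a5 made up 80.2% ± 2.72 of this sum in hypoxia and 70.4% ± 2.47 in normoxia. The share of Slc7a6 went the other way, from 5.65% ± 0.739 to 13.2% ± 2.02, with no overlap of its 4 values in either group. The share of Slc7a8 (LAT2), a second exchanger of neutral amino acids, was 9.30% ± 3.34 and 9.32% ± 2.95. Within groups Slc7a8 varied with the summed macrophage markers (r 0.99, described below), and which cells its RNA came from was not tested. The sum and the shares were taken with the longest transcript only. Slc7a10 was at 0 in 7 samples.

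**Figure D2:**
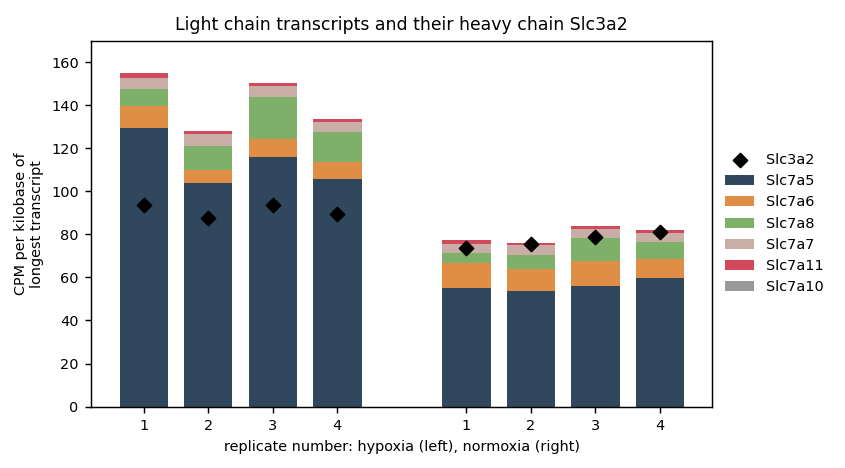
Stacked bars give the CPM per kilobase of longest transcript of the 6 light chains in each of 8 samples, hypoxia on the left and normoxia on the right, and diamonds give their heavy chain Slc3a2. The bars stand between 128 and 155 in hypoxia, above the diamonds, and between 76.1 and 83.7 in normoxia, close to them.

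Slc7a6 (ENSMUSG00000031904, chromosome 8, 106168857 to 106198706, plus strand), which exchanges cationic for neutral amino acids, was at 37.8, 22.5, 31.9 and 28.8 CPM in hypoxia and at 44.5, 38.2, 42.5 and 32.2 CPM in normoxia. It was higher in normoxia in all 4 pairs of samples with the same number, although the ranges of the groups overlapped. The means were 30.2 ± 6.35 and 39.3 ± 5.45 CPM (SD, n = 4 each), with a log2 change of 0.39 (SE 0.14), which was 0.50 without hypoxia replicate 1 and 0.26 without hypoxia replicate 2.

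The 2 carriers of cationic amino acids differed from each other in size. Slc7a3 (CAT3; ENSMUSG00000031297, chromosome X, 101079210 to 101086020, minus strand) was at 34.4, 28.5, 28.4 and 30.3 CPM in hypoxia and at 12.8, 8.0, 7.58 and 9.65 CPM in normoxia. This was the largest proportional difference of the 10 transporters: 30.4 ± 2.83 against 9.50 ± 2.36 CPM (SD, n = 4 each), a 3.20-fold higher mean in hypoxia and a log2 change of -1.68 (SE 0.15). Its counts were between 105 and 824 per sample, well above the 3 counts taken as the floor of detection. Slc7a1 (CAT1; ENSMUSG00000041313, chromosome 5, 148327410 to 148399904, minus strand) was the more abundant of both genes, at 141, 108, 128 and 112 CPM in hypoxia and 116, 98.6, 105 and 104 CPM in normoxia. Its groups overlapped, and the level was lower in normoxia in all 4 pairs, with differences between -0.29 and -0.11 and a log2 change of -0.20 (SE 0.085), or -0.13 without hypoxia replicate 1.

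Of the neutral exchangers, Slc1a5 (ASCT2, the main glutamine exchanger of many dividing cells; ENSMUSG00000001918, chromosome 7, 16781340 to 16798274, plus strand) was at 197, 226, 196 and 205 CPM in hypoxia and at 107, 126, 109 and 120 CPM in normoxia. The groups were wide apart, with means of 206 ± 13.9 and 115 ± 9.09 CPM (SD, n = 4 each), 44.2% lower in normoxia. The log2 change was -0.84 (SE 0.070), and it was alike in all pairs, between -0.89 and -0.77. Its paralog Slc1a4 (ASCT1; ENSMUSG00000020142, chromosome 11, 20302180 to 20332713, minus strand) was at 210, 187, 207 and 190 CPM in hypoxia and 171, 153, 168 and 163 CPM in normoxia. This gene also kept the groups apart, by a smaller margin of 17.7% and a log2 change of -0.28 (SE 0.060).

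The sodium-coupled carriers form the remaining neutral pair. Slc38a2 (SNAT2, known to rise when amino acids are withdrawn; ENSMUSG00000022462, chromosome 15, 96687392 to 96699730, minus strand) was at 281, 259, 262 and 243 CPM in hypoxia and at 253, 219, 216 and 223 CPM in normoxia. The highest normoxic sample lay within the hypoxic range, all 4 pairs were lower in normoxia, and the log2 change was -0.20 (SE 0.066). After correction for GC content and length it was -0.35, a wider difference than those of Slc3a2 (-0.16), Slc7a1 (-0.18) and Slc1a4 (-0.23) on the same scale. Slc38a1 (SNAT1; ENSMUSG00000023169, chromosome 15, 96571418 to 96642913, minus strand), its neighbour on the chromosome, was at 56.3, 41.2, 42.9 and 40.8 CPM in hypoxia and 53.0, 43.0, 49.1 and 52.2 CPM in normoxia. Here the groups overlapped, 3 of 4 pairs were higher in normoxia, and the log2 change of 0.13 was close to its SE of 0.11. It was 0.24 without hypoxia replicate 1, the highest sample.

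Slc7a11 (ENSMUSG00000027737, chromosome 3, 49892526 to 50443614, minus strand) had 133 to 544 counts per sample and was the least abundant of the 10 per kilobase of transcript, while in CPM Slc7a3 was lower in normoxia. It was at 22.7, 14.6, 14.5 and 11.3 CPM in hypoxia and at 17.5, 9.58, 12.3 and 13.6 CPM in normoxia. Sample 1 was the highest in both groups, the ranges overlapped, and 3 of 4 pairs were lower in normoxia. The log2 change was -0.23 with an SE of 0.21, and -0.04 without hypoxia replicate 1. With the replicate number as a block and a correction for GC content and length, it was -0.43 (SE 0.098).

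The promoters were read for letters known to be bound by ATF4 or related factors, because several transporters are known ATF4 targets. RefSeq windows of 250 bases before the transcription start (GRCm38.p6) were at hand for 6 of the 10 genes, and there was no entry for Slc7a5, Slc7a3, Slc1a5 and Slc38a1. The amino acid response element TGATGCAA, searched on both strands, was in the window of 1 of these 6 genes, Slc7a11, and in 0.792% of all 32841 windows. Slc7a11 held it 2 times, once on each strand, with the first letters 66 and 47 bases before the start. Only 2 of all windows held 2 or more copies. The relaxed form TGATGNAA, which includes the first, was in 3.45% of windows. For comparison, of 19 listed genes of the amino acid response with a window, 4 held TGATGCAA (Atf3, Chac1, Nupr1 and Vldlr) and 5 the relaxed form, with Asns added. The windows of Chac1 (a glutathione-degrading enzyme) and Asns (asparagine synthetase) are shown because both are textbook genes of this response. In the sequences below, 5′ to 3′ along each gene, capitals mark the match on either strand. Slc7a11 is at chr3:50443634-50443733 (minus strand), Chac1 at chr2:119351038-119351067 (plus strand) and Asns, with the relaxed form, at chr6:7693214-7693243 (minus strand).
Slc7a11: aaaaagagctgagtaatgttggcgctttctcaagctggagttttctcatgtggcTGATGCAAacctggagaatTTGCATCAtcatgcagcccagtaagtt
Chac1: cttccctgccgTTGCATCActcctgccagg
Asns: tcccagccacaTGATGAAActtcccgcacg
The 6 genes had 8 windows, as some have more than 1 start. Of the core letters of hypoxia response elements, ACGTG was in 3 of the 8 windows and 16.6% of all windows, and GCGTG in 3 of the 8 and 28.2% of all. Counted by gene, each was in 2 of the 6, because overlapping windows of Slc7a6 held both. TGACNNNGC, a core of the antioxidant response element, was in 3 of the 8 windows and 10.2% of all. The E-box CACGTG, which contains ACGTG, was in 0 of the 8 windows and 6.02% of all. A match is a description of the letters and not a measured binding site.

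Side by side, 8 of the 10 transporters had a negative log2 change and Slc7a6 and Slc38a1 a positive one, and the median was -0.24, against 0.00 over all tested genes. Without the block, 6 transporters were under the adjusted threshold of 0.05 (Slc7a5, Slc3a2, Slc7a3, Slc1a4, Slc1a5 and Slc38a2, all lower in normoxia), where 34.6% of all tested genes were under it, 16.5% lower and 18.0% higher. With the block 8 were under it, as Slc7a1 (lower) and Slc7a6 (higher) were added, against 46.0% of all genes, of which 22.7% were lower and 23.3% higher. With the correction for GC and length as well, 9 were under it, as Slc7a11 was added, against 43.2% of all genes, and with that correction but no block 6 were, against 29.5%. Scaling to library size alone, which moved the median log2 change of all genes to 0.089, put 5 transporters lower and 1 higher (Slc7a6) under the threshold, against 11.0% and 25.1% of all genes. On that scaling the log2 change was -0.15 for Slc3a2 and -0.11 for Slc38a2. The ranges of the groups did not overlap for 5 transporters, all lower in normoxia, against 32.6% of all genes in either direction and 15.5% in that one. Slc7a5 and Slc7a3 were lower by at least 1 on the log2 scale and under the threshold, and 1.20% of all tested genes met both conditions. The transporters were selected with these differences in view, so nothing is read from these counts. The median GC content of the 10 was 50.3%, from 40.7% in Slc7a11 to 56.7% in Slc1a5, and that of all tested genes 49.7%. After correction for GC content and length, in the blocked fit, the log2 change was -0.88 for Slc7a5, -0.16 for Slc3a2, -0.69 for Slc1a5, -0.35 for Slc38a2 and -1.70 for Slc7a3.

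Per kilobase of longest transcript, Slc7a5 was the most abundant of the 10 in hypoxia, at 114 ± 11.8 CPM per kilobase, ahead of Slc3a2 at 91.1 ± 2.92 (SD, n = 4 each). In normoxia the order was turned, with Slc3a2 at 77.2 ± 3.31 and Slc7a5 at 56.2 ± 2.67 CPM per kilobase, and in both groups their 4 values did not overlap. Next in hypoxia came Slc1a5 at 73.5, Slc1a4 at 50.6 and Slc38a2 at 42.7 CPM per kilobase, each above the range of the following one. In normoxia these became 41.0, 41.7 and 37.2 CPM per kilobase with overlapping values, so that the lead of Slc1a5 over Slc1a4 was present at 2% oxygen and absent at 21%. With merged exons as the length, Slc1a4 was ahead of Slc1a5 in hypoxia too. Slc7a1 followed at 17.1 and 14.7 CPM per kilobase. At the low end, Slc7a3 went from 11.1 to 3.45 CPM per kilobase and so from the seventh to the ninth place, below Slc7a6 (8.07 and 10.5) and Slc38a1 (6.24 and 6.79), whose hypoxic values overlapped. Slc7a11 was last at 1.71 and 1.44 CPM per kilobase.

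How the transporters vary within a group does not use the difference between oxygen levels. Deviations of log2 CPM from the group mean were correlated over all 8 samples, with no p-value, since samples of the same number deviate together and hypoxia replicate 1 was sequenced more deeply. The median Pearson r over the 45 pairs of transporters was 0.52 (median Spearman rho 0.48), and 34 of the 45 were above 0. Without both samples numbered 1 the median r was 0.37. Slc1a5 had an r below 0 with all 9 others over the 8 samples, down to -0.88 with its paralog Slc1a4 (rho -0.74, and r -0.87 without the samples numbered 1). Without the samples numbered 1, however, its r was above 0 with Slc7a3 (0.25) and Slc38a2 (0.23). Over those 6 samples Slc1a4 also varied with the summed macrophage markers, at r 0.94, and Slc1a5 against them, at r -0.97, while over all 8 samples both values were near 0 (-0.06 and -0.07). Over all 8 samples the 10 transporters ranged from -0.71 (Slc38a2) to 0.36 (Slc3a2) in their r with the summed macrophage markers. Without Slc1a5, 34 of 36 pairs were above 0 over the 8 samples. Over the 6 samples without number 1, other pairs were below 0, such as Slc7a3 and Slc7a6 (r -0.54). Slc7a5 and its heavy chain Slc3a2 varied together at r 0.77 (rho 0.76), and at r 0.98 over the 6 samples without number 1. The highest value was between Slc7a11 and Slc38a1, at r 0.93 (rho 0.93, and r 0.86 over those 6 samples).

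**Figure D3:**
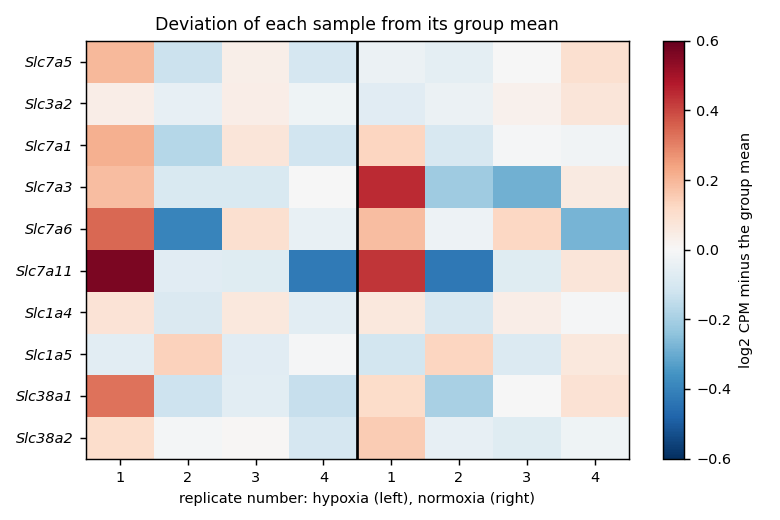
Colours give, for each transporter (rows) and sample (columns, hypoxia left of the line), the log2 CPM minus the mean of its group, red above and blue below. Replicate 1 is red in both groups for most rows, and the row of Slc1a5 runs opposite to that of Slc1a4.

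In 7 of the 10 transporters (Slc7a1, Slc7a3, Slc7a6, Slc7a11, Slc1a4, Slc38a1 and Slc38a2) sample 1 was the highest in both groups, against 15.7% of all tested genes, a count made after the values were seen. The genes whose deviations were most like those of Slc7a5, out of 9394 genes compared over the 8 samples, were Ddhd2 (r 0.96), Egln1 (r 0.95), Lonp1 (r 0.95), Ewsr1 (r 0.95) and Prmt7 (r 0.95). None of the other 9 transporters was among these 5.

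Other plasma membrane and vesicular amino acid transporters, from the families of the 10 and from the SLC6, SLC16, SLC36 and SLC43 families, were taken as a list of 38 genes. Of these, 18 were tested and 9 had no count in any sample. In normoxia 5 of them fell and 3 rose, with a median log2 change of -0.17, beside the 34.6% of all tested genes under the threshold. With the block 7 fell and 3 rose, beside 46.0% of all genes. Those that fell were Slc38a4 (-1.36, adjusted p = 0.0037, at 3 to 37 counts per sample), Slc7a8 (-0.79, adjusted p = 0.040), the glycine carrier Slc6a9 (-0.75, adjusted p = 9.9e-05), the arginine carrier Slc7a2 (-0.49, adjusted p = 0.0043) and the glutamate carrier Slc1a6 (-0.47, adjusted p = 0.00025). Those that rose were the glutamate carrier Slc1a3 (0.62, adjusted p = 0.00049), the vesicular Slc6a17 (0.60, adjusted p = 0.0069) and Slc38a10 (0.30, adjusted p = 0.0029). Slc43a2 (LAT4), a carrier of large neutral amino acids that needs no heavy chain, had a log2 change of 0.03 (adjusted p = 0.88). Slc6a9 overlaps B4galt2 on the opposite strand, and reads of the 2 genes may have been mixed because a strand setting of the counting is not stated.

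Slc7a8, which shares Slc3a2 with Slc7a5, was at 31.9, 45.9, 79.9 and 56.7 CPM in hypoxia and 18.9, 26.2, 44.5 and 33.1 CPM in normoxia. Each normoxic sample was below the hypoxic one of its number, and with the block the adjusted p was 1.1e-09. The order of the samples, with 3 highest and 1 lowest in both groups, was also that of the summed macrophage markers, at 525, 745, 1076 and 855 CPM in hypoxia and 619, 736, 1169 and 870 CPM in normoxia. The deviations of Slc7a8 from its group means had an r of 0.99 with those of this sum over the 8 samples (rho 0.95, and r 0.99 without the samples numbered 1). Between groups the markers did not move as 1. The sum overlapped, and its most abundant marker, Lyz2, was higher in normoxia in 4 of 4 pairs. Csf1r and Cd68 were lower in normoxia in 4 of 4, Adgre1 in 3 of 4 and Ptprc in 1 of 4. Mrc1 was at 50.5, 102, 142 and 97.8 CPM in hypoxia and 32.9, 45.2, 78.7 and 58.9 CPM in normoxia, lower in each pair. The next highest r with the sum among the other transporters were 0.94 for Slc6a6, 0.88 for Slc43a2 and 0.82 for Slc16a10, and among the lysosomal ones below, 0.78 for Mfsd12 and 0.65 for Slc38a7. What share of the difference in Slc7a8 between oxygen levels came from macrophages was not tested. Without the block the call was lost on leaving out any of 6 samples (hypoxia replicates 2 to 4 and normoxia replicates 1, 2 and 4), where the adjusted p was 0.054 to 0.12, with DESeq2 (0.077), with voom (0.059), with scaling to library size alone (0.065) and with the GC and length correction alone (0.053).

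**Figure D4:**
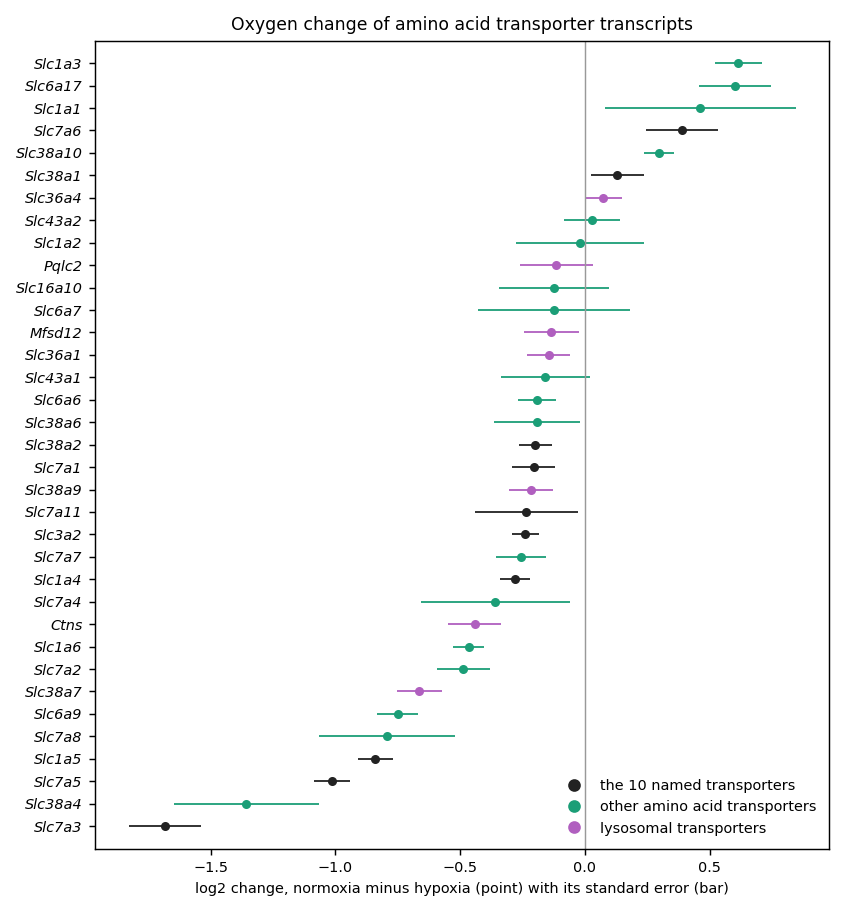
Points give the log2 change (normoxia minus hypoxia) and bars its SE for the 10 transporters (black), the other tested amino acid transporters (green) and lysosomal transporters (violet). The 10 run from -1.68 in Slc7a3 to 0.39 in Slc7a6 and are interleaved with the others.

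Lysosomal transporters move amino acids across the lysosomal membrane, and many of them return those of degraded protein to the cytosol. Of 8 listed, 7 were tested, and 2 fell in normoxia, beside 16.5% of all tested genes: Slc38a7, a lysosomal glutamine exporter (-0.66, adjusted p = 0.00028), and the cystine exporter Ctns (-0.44, adjusted p = 0.0074). At an unadjusted p under 0.05, 3 were lower, and the share of all genes was not counted there. By the edgeR quasi-likelihood test and DESeq2 2 were called each, beside 4862 of 14369 and 4692 of 14088 genes. Slc38a9, an arginine sensor of mTORC1, had a log2 change of -0.22 (adjusted p = 0.078), and after correction for GC and length in the blocked fit its adjusted p was 0.0029.

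Of 20 genes of the amino acid response, 6 fell and 3 rose, beside the 34.6% of all tested genes under the threshold, and their median log2 change was 0.09. This balance depended on the processing, as did that of all tested genes. On scaling to library size alone, 5 were lower and 8 higher, beside 11.0% and 25.1% of all genes. With the GC and length correction it was 4 and 6, beside 29.5% of all genes in either direction. With that correction in the blocked fit it was 6 and 7, beside 21.5% and 21.7%. The genes that fell were the pseudokinase Trib3 (-0.68, adjusted p = 2.7e-05), Atf5 (-0.60, adjusted p = 3.6e-05), Asns (-0.41, adjusted p = 0.0042), Chac1 (-0.41, adjusted p = 0.0014), Sesn2 (-0.27, adjusted p = 0.0068) and Ddit4 (-0.21, adjusted p = 0.011). Those that rose were the kinases Eif2ak2 (0.63, adjusted p = 0.00066) and Eif2ak3 (0.39, adjusted p = 0.010) and the phosphatase subunit Ppp1r15a (0.43, adjusted p = 0.0058). These kinases feed the same response from other stresses. The listed kinase that senses amino acid shortage, Eif2ak4 (GCN2), was not under the threshold. Atf4 itself was at 253, 211, 220 and 224 CPM in hypoxia and 238, 235, 251 and 243 CPM in normoxia, with a log2 change of 0.09 (adjusted p = 0.28), and with the block and the correction for GC and length 0.25 (adjusted p = 7.5e-05). That correction ended the calls of Sesn2 (adjusted p = 0.078) and Ddit4 (adjusted p = 0.95), and the correction without the block that of Chac1 (adjusted p = 0.079). Atf5 overlaps Nup62 on the opposite strand.

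Of 25 genes of mTORC1 and its nutrient sensors, 6 fell and 5 rose, beside 34.6% of all tested genes, with a median log2 change of 0.04. On scaling to library size alone, 4 were lower and 7 higher, beside 11.0% and 25.1% of all genes. The translation repressor Eif4ebp1 fell (-0.42, adjusted p = 0.0033), as did the mTORC1 inhibitor Tsc2 (-0.34, adjusted p = 0.00052) and Lamtor1, which anchors the complex on lysosomes (-0.28, adjusted p = 0.0099, and 0.065 on scaling to library size alone). The kinases Mtor (0.41, adjusted p = 0.0019) and Rps6kb1 (0.45, adjusted p = 0.0016) and the inhibitor Tsc1 (0.43, adjusted p = 0.0071) rose. On the opposite strand, Tsc2 overlaps Pkd1, Mtor overlaps Angptl7 and Rps6kb1 overlaps Rnft1, each with more counts than the listed gene. As for Slc6a9, reads may have been mixed there. The calls of Lamtor2, Lamtor4 and Castor1, lower in normoxia, and of Fnip1, higher, were lost after correction for GC and length in the blocked fit (adjusted p of 0.56, 0.088, 0.43 and 0.73).

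A list of 22 enzymes covered the use of imported amino acids such as glutamine, glutamate, cysteine, arginine and branched-chain amino acids. Of these, 19 were tested, and 4 fell and 6 rose, beside 34.6% of all tested genes. The 3 not tested, Arg1, Arg2 and Nos2, use arginine and had at most 4 counts in any sample. With the block 8 fell and 6 rose, beside 46.0%, and with the GC and length correction alone 3 fell and 3 rose, beside 29.5%. Gclc, the catalytic subunit of the enzyme that joins cysteine to glutamate in glutathione synthesis, was at 16.1, 14.8, 15.1 and 16.3 CPM in hypoxia and 35.0, 28.4, 30.8 and 26.2 CPM in normoxia, a log2 change of 0.93 (SE 0.095, adjusted p = 7.4e-05). The modifier subunit Gclm rose too (0.41, adjusted p = 0.00093; 0.076 with the GC and length correction alone), while the proline synthesis enzymes Pycr1 (-0.51, adjusted p = 0.00025) and Aldh18a1 (-0.39, adjusted p = 0.0016) fell.

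**Figure D5:**
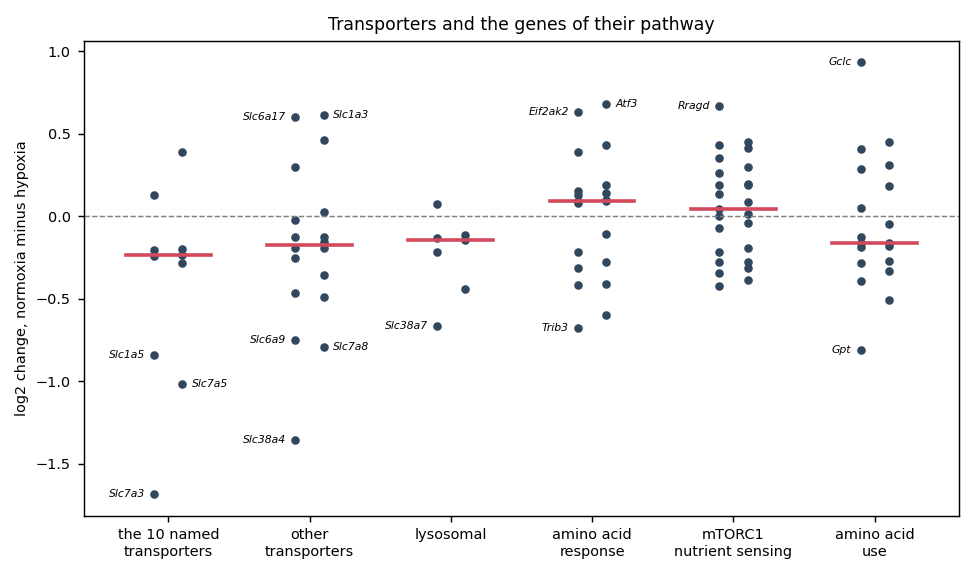
Each point is the log2 change (normoxia minus hypoxia) of 1 tested gene, in 6 groups of genes, and red lines are group medians. The medians are -0.24 for the 10 transporters, which were chosen with these values in view, and 0.09 for the amino acid response.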

How the data were processed

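RNA-seq was done on 4 hypoxic and 4 normoxic MSC samples. The authors used zUMIs, with STAR, featureCounts and samtools, on mm10 and Ensembl genes, and deposited raw counts per gene, which are not normalized. Use of strand, introns and multi-mapped reads is not stated in the sources used here. Symbols and positions are from GENCODE M21 (GRCm38). The transporters, gene lists and tests were chosen with earlier results of these data known.

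Counts were filtered with edgeR 4.0.16 (filterByExpr, minimum count of 5), scaled by TMM and compared by limma-trend in limma 3.58.1 (R 4.3.3), with Benjamini-Hochberg adjustment over all 14369 genes and a threshold of 0.05. Simulated data, with 200 of 14224 genes changed by 1 on the log2 scale, gave 98.5% of them back and 6.64% false calls. The simulation gave all genes the same spread and samples of the same number no shared effect. It also changed far fewer genes than were called in the data, so these rates do not carry over to the calls reported. Besides all transporters, up to 6 genes with the largest rise and 6 with the largest fall per list qualified for naming, with Atf4, Asns, Slc7a8, Slc43a2, Slc38a9, Gclc and Gclm. Of those qualifying, a few are given by count only, and a further gene is not reported here.

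Samples with the same number were taken as pairs only where pairs are counted and in the fits with the block. All other fits, the main one included, ignored the number. For pairs of the same number, deviations from the group means correlated across genes at 0.47, 0.28, 0.25 and 0.17. The methods of the study, unlike the labels, also divide 1 sorted population. The study describes its RNA-seq replicates as biologically independent, without saying whether each number stands for separate animals or cultures. The p-values set the difference between groups against the spread between these samples. Alternatives used a replicate block, GC and length splines, edgeR, DESeq2 1.42.0, voom, other scalings, filters, prior counts and thresholds, and left out each sample.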

Additional observations from a re-analysis of the deposited data

Results flagged for a closer look

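In groups of 4, the distance of 1 sample from the nearest other, as a share of the whole range, exceeded Dixon's critical value for 4 samples in 10 of 112 sets of values examined. Chance gives about 1 in 20, or 5.6 of these sets. Total counts in hypoxia had a share of 0.976, with replicate 1 at 25132141. Slc38a1 was flagged by hypoxia replicate 1 (share 0.86), at 56.3 CPM against 40.8 to 42.9 in the others. Hypoxia replicate 1 also stood apart for Atf5 (0.959), at 425 CPM against 451 to 452, for Pycr1 (0.921), at 130 CPM against 113 to 114, and for Glud1 (0.856), at 272 CPM against 255 to 257.

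The other samples far from their group were hypoxia replicate 2 for Eif2ak2 (0.842), at 34.3 CPM against 25.1 to 26.6, and hypoxia replicate 3 for Tsc2 (0.87), at 105 CPM against 102 in the others. In normoxia they were replicate 3 for Slc43a2 (0.928), at 73.4 CPM against 62.5 to 63.3, replicate 2 for Ctns (0.838), at 16.5 CPM against 14.3 to 14.6, and replicate 4 for Trib3 (0.961), at 87.3 CPM against 83.1 to 83.3. Glud1, a mitochondrial glutamate dehydrogenase, rose in normoxia by 0.18 on the log2 scale (adjusted p = 0.018), and lost this call without hypoxia replicate 3, normoxia replicate 1 or normoxia replicate 3 (adjusted p of 0.051, 0.075 and 0.065) and with the GC and length correction alone (0.078).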

How the results depend on the processing

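At an adjusted p under 0.01 in place of 0.05, 2925 genes were called in place of 4970. With the GC and length correction alone, 6 genes of amino acid use were called in place of 10, and 4238 of all genes in place of 4970. The ratio of Slc7a5 to Slc3a2 per length became 1.49 in hypoxia and 0.866 in normoxia with merged exons, and the cause lies in the lengths themselves, which differ more for Slc3a2. The log2 change of Slc43a2, which was not called, reversed to -0.0688 without hypoxia replicate 1, to -0.0343 without normoxia replicate 3 and to -0.0547 without both samples numbered 1, an alternative chosen after seeing the data. With single samples left out it ran from -0.0688 to 0.144.

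With each sample left out in turn, 3838 to 5423 genes, 5 to 7 of the 10 transporters, 7 to 10 other transporters, 2 lysosomal ones (2 each time), 9 to 11 amino acid response genes, 9 to 12 mTORC1 genes and 8 to 13 amino acid use genes were called. With the replicate block these were 6610, 8, 10, 2, 12, 13 and 14, and no such count moved by over 1.5 times. On scaling to library size alone, 1575 genes were lower and 3611 higher, against 2378 and 2592. The signs of the log2 changes of all 10 transporters held under every alternative run, with Slc7a11 between -0.43 and -0.04. Levels near 1 CPM, such as those of Slc38a4, rest on few counts.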
